A study of Mus musculus with 8 samples.

Results

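Serum amyloid A, orosomucoid, lipocalin 2, haptoglobin and hemopexin are proteins that the liver secretes in quantity during inflammation. Their 10 mouse genes, Saa1, Saa2, Saa3, Saa4, Orm1, Orm2, Orm3, Lcn2, Hp and Hpx, were taken by gene symbol from the 22923 symbols in the expression tables of a liver RNA sequencing study. All 10 symbols were present, and all 10 passed the filter of at least 1 RPKM (reads scaled by the length of the transcript and the size of the library) in at least 1 group, as did 10351 symbols in all.

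The livers came from C57BL/6 mice with the label Xbp1flox (called flox, the controls) or Xbp1-/- (called knockout, with Xbp1 deleted in the liver). Each genotype was fed regular chow or, for 4 weeks, a high-fat diet to which the equivalent of high-fructose corn syrup was added, so fat and fructose effects cannot be told apart. The 4 mice of each of the 4 cohorts were pooled into 2 libraries, and the files analysed here hold 1 RPKM value per gene and cohort. The spread between libraries, the sequencing depth, the driver of the deletion and the age and sex of the mice were not stated in the labels. Every value below is therefore a single value per group without an error, no test was possible, and a difference between groups has no replicate check.

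XBP1, which the unfolded protein response activates, is a transcription factor that widens the secretory pathway of cells that export much protein, such as hepatocytes. The acute phase response is the shift in hepatocyte secretion that follows infection or injury. It is driven mainly by interleukin-6 acting through STAT3 and by interleukin-1 and tumour necrosis factor acting through NF-kB, together with factors of the C/EBP family. Genes whose proteins rise in plasma are called positive acute phase genes, and those whose proteins fall, such as albumin and transthyretin, negative ones.

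Changes are given as the log2 of the ratio of RPKM values after 1 RPKM was added to each, which understates the change of genes with low values. Genes past 2-fold on that scale are said to have risen or fallen. Xbp1 itself stood at 112 RPKM in flox livers on chow, 90.7 in flox livers on high fat, 44.2 in knockout livers on chow and 34.1 in knockout livers on high fat. It was thus below the flox level on both diets (log2 changes of -1.32 and -1.39), as the labels say. Which part of the gene was deleted was not stated in the labels, and the RPKM value covers the whole gene. Of 15 hepatocyte marker genes, 14 passed the filter, among them Ttr at 2904 to 5347 RPKM, while Alb was listed at 0 in all 4 groups, a listing that may be a failed estimate. Some hepatocyte markers fell in knockout livers: F2 (prothrombin) and Cyp2e1 on chow (log2 changes of -1.206 and -1.199), and Apoa1, F2, Cps1 and Cyp2e1 on high fat. Of those on high fat, Cyp2e1 alone passed 2-fold under the rescalings described below. As deposited, 0 markers were higher by 2-fold, though Glul (0.40 on chow and 0.88 on high fat) and Pck1 (0.75 and 0.27) went up. The rise of Glul on high fat passed 2-fold under both rescalings. The median of the 14 was -0.20 on chow and -0.51 on high fat, against -0.02 and -0.13 for all genes, and their part in the members' levels was not tested. The sum of all RPKM values was 513694 in flox livers on chow, 461725 in flox livers on high fat, 461392 in knockout livers on chow and 367414 in knockout livers on high fat. In whole tissue, fewer cells of a type and less RNA per cell cannot be told apart.

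The genes fall into families that lie together in the genome. On the mm10 assembly (GRCm38, GENCODE M21), the 4 serum amyloid A genes lie on chromosome 7 in the order Saa3 (chr7:46711998-46715700), Saa4 (chr7:46727998-46732603), Saa1 (chr7:46740497-46742980) and Saa2 (chr7:46751790-46754313). Saa1 and Saa2 are separated by 8809 bases and are read in opposite directions, away from each other. The orosomucoid genes lie on chromosome 4 in the order Orm1 (chr4:63344560-63348163), Orm3 (chr4:63356162-63359511) and Orm2 (chr4:63362449-63365878), all on the forward strand. Lcn2 (chr2:32384633-32388252), Hp (chr8:109575128-109579172) and Hpx (chr7:105591613-105600137) stand apart from these clusters. All 10 are annotated as protein-coding.

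The coding sequences of Saa1 and Saa2 were identical at 348 of 366 aligned positions (95.1%), and those of Orm1 and Orm2 at 558 of 621 (89.9%). Of all 50-base stretches of the Saa1 transcript, 13.2% also occurred in Saa2, and 20.4% of those of Orm1 also occurred in Orm2, so short reads could be assigned to either member of such a pair. RefSeq moreover lists Saa1 and Saa2 each as an older name of the other, and the annotation behind the deposited symbols was not stated in the labels. The split between Saa1 and Saa2, and between the orosomucoid genes, is therefore uncertain, and the sum of each family is given beside the single genes.

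The likeness of the Saa1 and Saa2 loci extended into their upstream sequence, which is shown because the RNA of this pair fell the most in knockout livers on chow. Upstream sequences were found in RefSeq (GRCm38.p6) for 8 of the 10 genes, and the 250 bases before the start that RefSeq gives were used. In the first pair below, capitals mark the bases at which Saa1 (chr7:46742981-46743230, reverse strand) and Saa2 (chr7:46751583-46751832, forward strand) differ. The 2 windows were identical at 238 of 251 aligned positions (94.8%), with 11 mismatches and 1 unpaired base in each.
Saa1 upstream: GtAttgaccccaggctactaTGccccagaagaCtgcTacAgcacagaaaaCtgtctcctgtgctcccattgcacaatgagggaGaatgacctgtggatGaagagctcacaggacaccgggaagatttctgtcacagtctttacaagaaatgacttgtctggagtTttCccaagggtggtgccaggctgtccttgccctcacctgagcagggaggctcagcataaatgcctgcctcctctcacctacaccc
Saa2 upstream: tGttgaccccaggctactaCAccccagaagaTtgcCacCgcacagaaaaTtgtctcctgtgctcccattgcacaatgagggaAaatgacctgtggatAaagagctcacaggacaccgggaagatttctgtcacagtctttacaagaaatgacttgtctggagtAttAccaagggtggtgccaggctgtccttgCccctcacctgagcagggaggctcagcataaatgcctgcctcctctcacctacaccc

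The next 3 sequences belong to the genes with the largest ratio of knockout to flox level on high fat, with capitals at matches to 2 short motifs. Orm2 (chr4:63362199-63362448, forward strand) and Lcn2 (chr2:32387740-32387989, reverse strand) each hold 1 match to the C/EBP motif TTGCNNAA. Saa3 (chr7:46715677-46715926, reverse strand) holds 1 match to that motif and, upstream of it, 1 match to the NF-kB motif GGNNTTTCC, both on the opposite strand. GENCODE places the outer end of Lcn2 farther upstream than RefSeq does, so the Lcn2 window lies within the gene as GENCODE draws it. The windows of Saa2, Saa3 and Hpx overlap the outer end of the GENCODE gene in part.
Orm2 upstream: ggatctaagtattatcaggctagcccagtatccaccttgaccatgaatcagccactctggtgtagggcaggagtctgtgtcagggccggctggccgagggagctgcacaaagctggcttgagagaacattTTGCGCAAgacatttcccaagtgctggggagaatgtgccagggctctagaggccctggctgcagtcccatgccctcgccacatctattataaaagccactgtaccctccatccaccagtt
Lcn2 upstream: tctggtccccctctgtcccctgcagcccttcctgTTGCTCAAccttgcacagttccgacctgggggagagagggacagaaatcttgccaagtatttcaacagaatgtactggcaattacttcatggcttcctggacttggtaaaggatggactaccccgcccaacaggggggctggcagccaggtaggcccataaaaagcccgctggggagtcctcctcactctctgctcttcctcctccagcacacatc
Saa3 upstream: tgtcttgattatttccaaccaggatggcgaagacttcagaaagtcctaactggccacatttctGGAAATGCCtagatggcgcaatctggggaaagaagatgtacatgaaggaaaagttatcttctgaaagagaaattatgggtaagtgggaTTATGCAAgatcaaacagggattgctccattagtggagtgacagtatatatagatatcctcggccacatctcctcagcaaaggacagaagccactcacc

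Read on both strands, the C/EBP motif was found in 8 of the 8 windows and in 9.56% of all 32851 windows of the same length. It lay 182 to 175 bases before the start of Saa1, 183 to 176 bases before Saa2, 120 to 113 bases before Orm2 and 121 to 114 bases before Orm3. The Saa1 and Saa2 windows, like the Orm2 and Orm3 windows (85.5% identical), are near copies and do not count as independent matches. The NF-kB motif was found in 1 of the 8 windows, that of Saa3 at 187 to 179 bases before the start, and in 4.93% of all windows. The STAT3 motif TTCNNNGAA (7.02% of all windows), the interleukin-6 response element CTGGGAA (9.1%) and the XBP1 core motif CCACGT (6.91%) were found in 0 of the 8. No 2 matches overlapped. A match shows only that the letters are present in the window, and no match only that they are not.

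**Figure D1:**
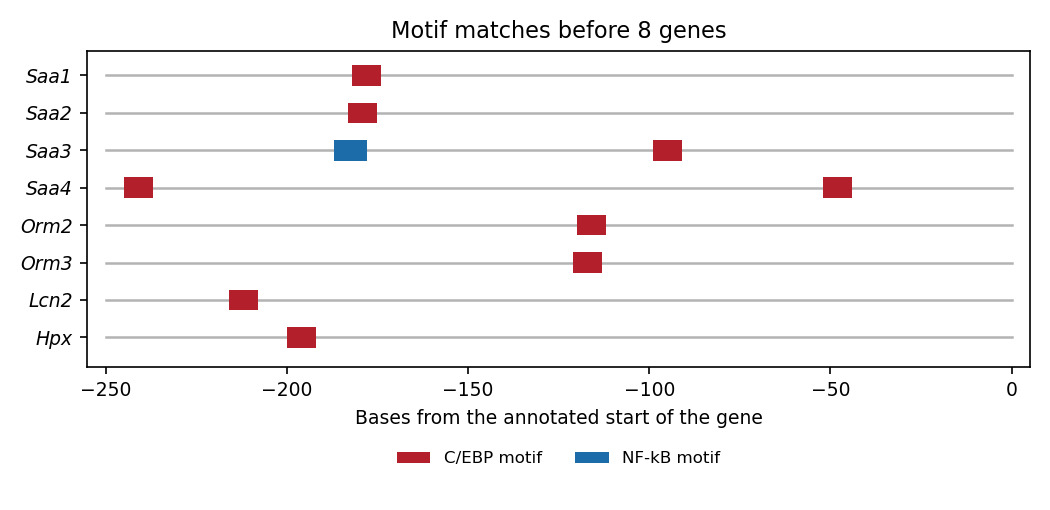
Positions of motif matches in the 250 bases before the RefSeq start of 8 genes; the horizontal axis gives bases from the start, red boxes are C/EBP matches and blue boxes NF-kB matches. Each of the 8 windows holds a C/EBP match, Saa4 has 2, and the NF-kB match lies before Saa3.

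On chow, 6 of the 10 genes were lower in knockout livers than in flox livers by at least 2-fold, Saa1, Saa2, Orm1, Orm2, Orm3 and Lcn2, and 0 were higher. The other 4, Saa3, Saa4, Hp and Hpx, stayed within 2-fold. Of the 10322 genes compared, 1.37% were lower and 0.252% higher by that measure. The median log2 change was -1.26 over the 10 genes and -0.02 over all genes compared.

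Saa1 and Saa2 encode the inducible serum amyloid A proteins of plasma, which circulate on high-density lipoprotein. Saa1 was at 2201 RPKM in flox livers on chow, 2022 in flox livers on high fat, 425 in knockout livers on chow and 1498 in knockout livers on high fat. Knockout livers on chow thus held the lowest level and stood apart from the other 3 groups, with 19.3% of the flox level on that diet (log2 change of -2.37). Saa2 was at 1699 RPKM in flox livers on chow, 1433 in flox livers on high fat, 197 in knockout livers on chow and 1613 in knockout livers on high fat. Again knockout livers on chow stood apart, at 11.6% of flox (log2 change of -3.10), the change that ranked 5 from the lowest among the 10322 genes compared, while that of Saa1 ranked 12. By abundance, Saa2 ranked 36 in flox livers and 349 in knockout livers on chow, and Saa1 ranked 28 and 157. The summed level of the pair, which does not depend on how reads were shared between them, fell by 2.65 on the log2 scale.

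The orosomucoids, also called alpha-1-acid glycoproteins, are plasma lipocalins that bind drugs and other small molecules. Orm1 was at 1921 RPKM in flox livers on chow, 1412 in flox livers on high fat, 567 in knockout livers on chow and 912 in knockout livers on high fat. Both flox groups were above both knockout groups, and on chow the knockout level was 29.5% of flox (log2 change of -1.76). Orm2 was at 143 RPKM in flox livers on chow, 141 in flox livers on high fat, 63.4 in knockout livers on chow and 332 in knockout livers on high fat. Its fall on chow, to 44.3% of flox (log2 change of -1.16), was smaller than that of Orm1. Orm3 was the least abundant of the 10 genes, at 4.46, 8.25, 1.12 and 3.57 RPKM in the same order of groups, with a log2 change of -1.36 on chow. With 5 RPKM added in place of 1, that change was -0.63 and no longer passed 2-fold. The summed orosomucoid level fell by 1.71 on the log2 scale on chow.

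Lipocalin 2, the product of Lcn2, withholds iron from bacteria by binding their siderophores. Lcn2 was at 94.2 RPKM in flox livers on chow, 98.1 in flox livers on high fat, 26.6 in knockout livers on chow and 184 in knockout livers on high fat. The flox groups lay close together and the knockout groups on either side of them, with 28.2% of the flox level on chow (log2 change of -1.79).

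Haptoglobin and hemopexin clear free haemoglobin and free haem from plasma. Hp was at 2339 RPKM in flox livers on chow, 2440 in flox livers on high fat, 1182 in knockout livers on chow and 1022 in knockout livers on high fat. Both knockout groups held less than both flox groups, and on chow the level of 50.5% of flox lay just inside the 2-fold limit (log2 change of -0.98). Hpx was at 3022, 2540, 2309 and 1880 RPKM in the same order and varied least of the 10, by 1.61-fold between its highest and lowest group. The log2 change of Hpx on chow was -0.39, which did not pass 2-fold.

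Saa4 encodes the constitutive form of serum amyloid A, which responds little to inflammation, and Saa3 a form that in mice is made by macrophages and adipocytes as well as liver. Saa4 was at 80.5 RPKM in flox livers on chow, 103 in flox livers on high fat, 60.9 in knockout livers on chow and 32.2 in knockout livers on high fat. Saa3 was at 20.02 RPKM in flox livers on chow, 13.2 in flox livers on high fat, 26.2 in knockout livers on chow and 66.7 in knockout livers on high fat. Neither passed 2-fold on chow, with log2 changes of -0.40 for Saa4 and 0.37 for Saa3, so the inducible plasma pair fell while its neighbours in the same cluster did not pass the limit.

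**Figure D2:**
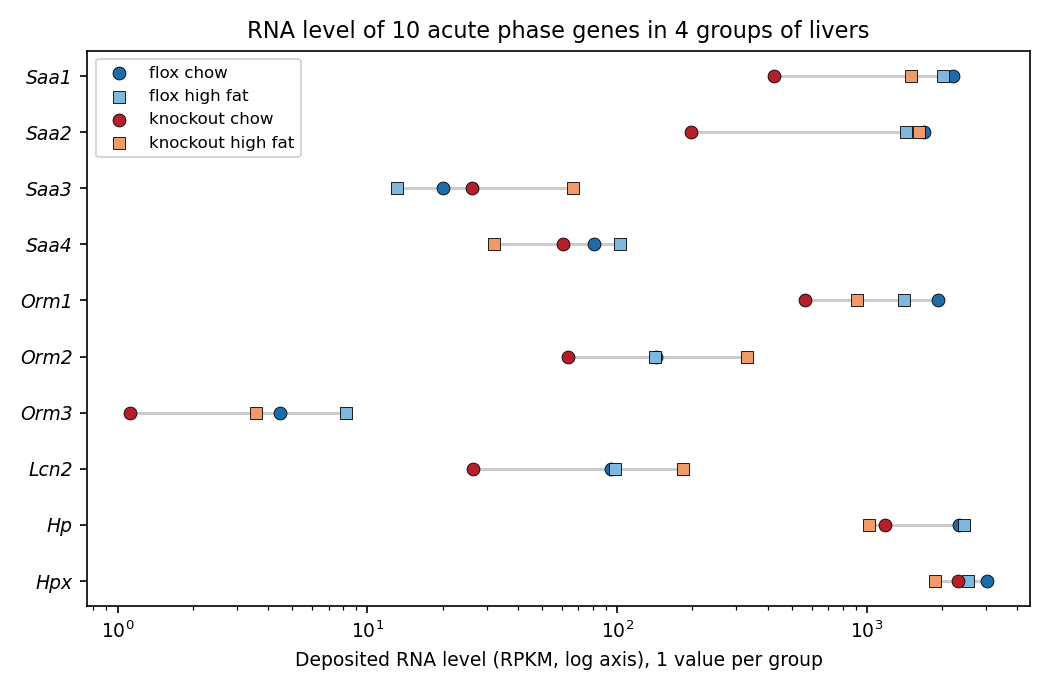
RNA level of each of the 10 genes in the 4 groups, in RPKM on a log axis; each marker is the single deposited value of a group (circles for chow, squares for high fat, blue for flox, red and orange for knockout), and the grey line spans lowest to highest. For Saa1, Saa2, Orm1, Orm2, Orm3 and Lcn2 the lowest marker is knockout on chow, and the 2 flox markers of Orm2 nearly coincide.

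On high fat, the comparison of genotypes no longer pointed one way. Saa3 and Orm2 were at least 2-fold higher in knockout livers, Saa4, Orm3 and Hp at least 2-fold lower, and the other 5 genes were within 2-fold. Of the 10327 genes compared, 1.07% were higher (111 genes) and 1.86% lower (192 genes). When each group was rescaled to a median log2 ratio of 0, this split turned to 185 higher and 93 lower, and when groups were given equal sums after the 50 most abundant genes were left out, to 193 higher and 89 lower. These rescalings moved the median log2 change of all genes from -0.13 to 0.10 and 0.12. Of the members' falls, that of Saa4 held under both, while those of Orm3 and Hp did not pass 2-fold.

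Saa3 was 5.06-fold higher in knockout than in flox livers on high fat, a log2 change of 2.26 that ranked 14 from the highest among all genes compared. Orm2 was 2.35-fold higher (log2 change of 1.23), while the orosomucoid sum, in which Orm1 weighs most, differed from flox by -0.32 on the log2 scale, and by -0.03 and -0.01 under the rescalings. Lcn2, at 1.87 times the flox level, was just short of the limit (log2 change of 0.90) and passed it under the rescalings (1.19 and 1.21). Saa2, the gene with the deepest fall on chow, was at 113% of the flox level on high fat, and Saa1 at 74.1%. Their sum differed from flox by -0.15 on the log2 scale, and by 0.14 and 0.16 under the rescalings, so its sign was not settled.

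Saa4 fell to 31.3% of the flox level on high fat, a log2 change of -1.65 that ranked 36 from the lowest. The serum amyloid A cluster thus held a gene that rose, a gene that fell and a pair within 2-fold of flox on this diet. Hp fell to 41.9% of flox (log2 change of -1.26, or -0.97 and -0.95 under the rescalings). Orm3 was at 43.4% of flox (log2 change of -1.02, or -0.78 and -0.76 under the rescalings). Hpx and Orm1, with log2 changes of -0.43 and -0.63, did not pass the limit.

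**Figure D3:**
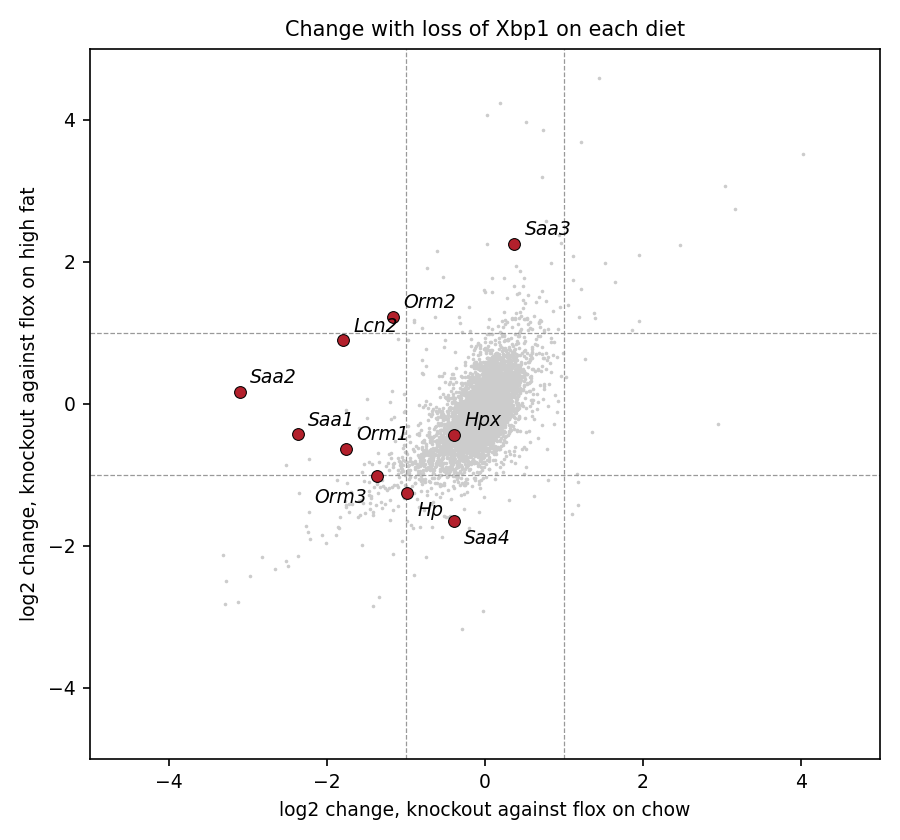
Log2 change between knockout and flox livers on chow (horizontal axis) and on high fat (vertical axis) for all genes compared (grey) and the 10 acute phase genes (red, named); dashed lines mark 2-fold. Saa2, Saa1, Lcn2 and Orm1 lie left of the lower limit on chow and within 2-fold on high fat, Orm2 is lower on chow and higher on high fat, and Saa3 is within 2-fold on chow and higher on high fat.

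In flox livers, the high-fat diet left all 10 genes within 2-fold of chow. Of the 10322 genes compared in flox livers, 0.213% were higher and 0.426% lower on high fat. The log2 changes of the 10 ran from -0.57 for Saa3 to 0.76 for Orm3, with a median of -0.07 against -0.01 for all genes. Orm2, Lcn2 and Hp had log2 changes of -0.02, 0.06 and 0.06, and the sums of Saa1 with Saa2 and of the orosomucoids had changes of -0.17 and -0.41.

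In knockout livers, 6 of the 10 genes were at least 2-fold higher on high fat than on chow, Saa1, Saa2, Saa3, Orm2, Orm3 and Lcn2, and 0 were lower. Of the 10328 genes compared in knockout livers, 0.668% were higher (69 genes) and 0.794% lower (82 genes). Under the rescalings the all-gene split was 131 higher and 47 lower, or 135 and 47, and the median of all genes moved from -0.11 to 0.12 and 0.13. The median log2 change of the 10 was 1.21, against -0.11 for all genes. This comparison shares its groups with the comparisons of genotype above, so the low chow values of the knockout livers enter both.

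Saa2 rose 8.18-fold with the diet in knockout livers, the change that ranked 4 from the highest of the 10328 genes. Lcn2 rose 6.92-fold and ranked 6, Orm2 rose 5.24-fold and ranked 11, and Saa1 rose 3.52-fold and ranked 18. For Saa1 the rise ended below the flox levels of both diets and for Saa2 between them, each within 2-fold. For Lcn2 and Orm2 it ended above both flox levels, at 1.87-fold of flox on high fat for Lcn2, within 2-fold, and at 2.35-fold for Orm2. Saa3 rose 2.55-fold from a chow level that was not below flox. Orm3 rose 3.18-fold, but at its low level the log2 change was 1.11 and, with 5 RPKM added, 0.49. Orm1, at 1.61-fold (log2 change of 0.69), did not pass the limit. The summed Saa1 and Saa2 level rose by 2.32 on the log2 scale, and the orosomucoid sum had a log2 change of 0.98, just short of the limit, or 1.27 and 1.28 under the rescalings. Saa4, Hp and Hpx had log2 changes of -0.90, -0.21 and -0.30, and that of Hp turned to 0.08 under both rescalings.

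**Figure D4:**
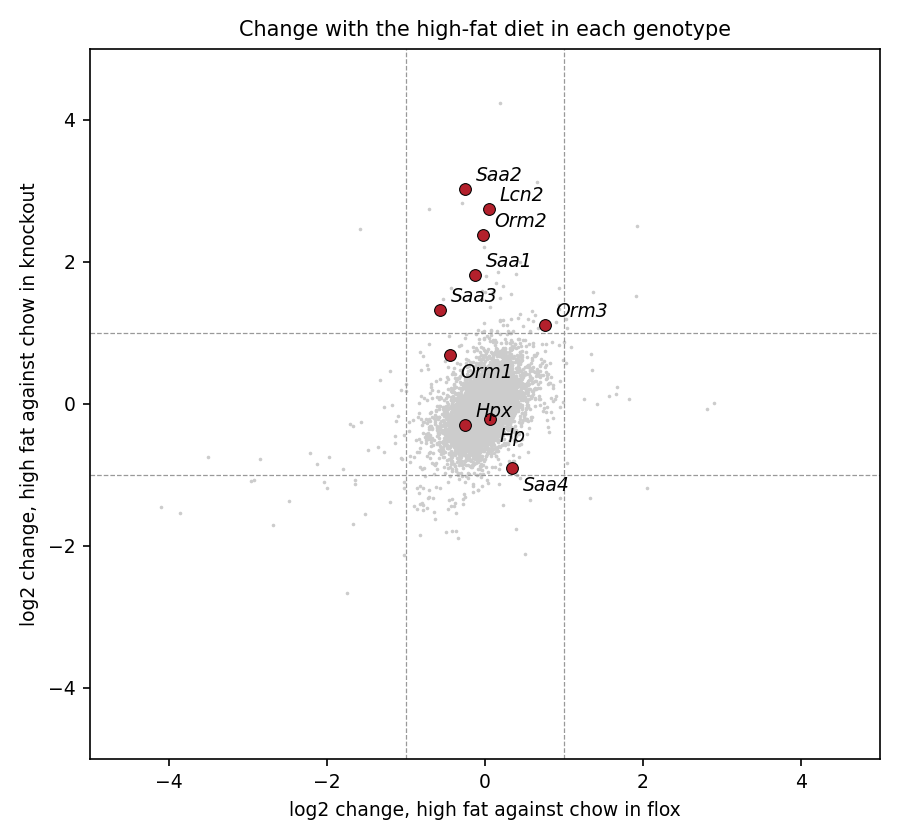
Log2 change between high fat and chow in flox livers (horizontal axis) and in knockout livers (vertical axis) for all genes compared (grey) and the 10 acute phase genes (red, named); dashed lines mark 2-fold. The 10 genes lie between the vertical limits, and Saa2, Lcn2, Orm2, Saa1, Saa3 and Orm3 lie above the upper horizontal limit.

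The difference between the knockout changes on the 2 diets was computed as the change on high fat minus the change on chow, and with 1 value per group it carries no test. It passed 2-fold upward for 6 of the 10 genes, Saa1, Saa2, Saa3, Orm1, Orm2 and Lcn2, and downward for Saa4. Of the 10319 genes for which it could be computed, 0.659% passed upward (68 genes) and 0.572% downward (59 genes), or 112 and 30 genes, and 106 and 35 genes, under the rescalings. Its size on the log2 scale was 3.27 for Saa2, 2.69 for Lcn2, 2.39 for Orm2, 1.94 for Saa1, 1.88 for Saa3 and 1.13 for Orm1, and it was 2.49 for the Saa1 and Saa2 sum and 1.39 for the orosomucoid sum. By this difference Saa2 ranked 4 and Lcn2 8 from the highest, and Saa4, with -1.25, ranked 23 from the lowest. Hp and Hpx, with -0.27 and -0.05, were within 2-fold.

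The make-up of the families shifted with these changes. Saa1 made up 56.4% of the summed Saa1 and Saa2 level in flox livers on chow, 58.5% in flox livers on high fat, 68.3% in knockout livers on chow and 48.2% in knockout livers on high fat. Saa1 thus led in 3 groups and Saa2 in knockout livers on high fat. Orm2 made up 6.91% of the orosomucoid sum in flox livers on chow, 9.05% in flox livers on high fat, 10.04% in knockout livers on chow and 26.6% in knockout livers on high fat. Orm1 led in all 4 groups, with its lowest share, 73.1%, in knockout livers on high fat. Because reads can move between near copies, these shares carry the uncertainty described for each pair. Hemopexin RNA exceeded haptoglobin RNA 1.29-fold and 1.04-fold in flox livers and 1.95-fold and 1.84-fold in knockout livers, on chow and high fat. Together the 10 genes took 2.24% of the RPKM sum in flox livers on chow, 2.21% in flox livers on high fat, 1.05% in knockout livers on chow and 2.05% in knockout livers on high fat.

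The genes whose log2 levels over the 4 groups lay nearest to those of the 3 most variable members were sought among 10319 genes, by the distance between profiles centred on their mean. The nearest to Saa2 were Saa1 (distance of 0.86), Lcn2 (1.06) and Cyp4a10 (1.07). The nearest to Lcn2 were Orm2 (0.55), Cd36 (1.01) and Cyp4a31 (1.04), and the nearest to Orm2 were Lcn2 (0.55), Cyp4a31 (0.61) and Cyp2b9 (0.73). Cyp4a10, which encodes a fatty acid hydroxylase, was at 145, 156, 30.2 and 90.8 RPKM in flox livers on chow, flox livers on high fat, knockout livers on chow and knockout livers on high fat. A distance over 4 single values is a description only.

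Of the other positive acute phase genes on chow, 5 of 23 compared were lower in knockout livers (Hamp2, Itih4, C3, Lrg1 and Serping1) and 1 was higher (Mt2). Itih4, an inter-alpha-trypsin inhibitor heavy chain, had 668 RPKM in flox and 141 in knockout livers on chow, and 637 and 182 on high fat, and Lrg1, a leucine-rich glycoprotein, 641 and 193 RPKM, and 579 and 201 RPKM. Itih4, Lrg1 and Serping1 were lower on high fat too, with log2 changes of -1.80, -1.52 and -1.42, whereas Hamp2 (-0.95) and C3 (-0.82), like Saa1, Saa2 and Lcn2, were within 2-fold on that diet. In all, 5 of 24 compared were lower on high fat, with Fgg and C4b beside those 3, and Mt1, Mt2 and Spink3 were higher. Under the rescalings 3 were lower and 4 higher. In knockout livers the diet raised 3 of 25 compared, the metallothionein gene Mt1, Il1rn and Spink3, and lowered 3, Hamp, Serpina1b and Lbp (log2 changes of -1.08, -1.10 and -1.16), none of which passed 2-fold under the rescalings. In flox livers 1 of 23 compared was lower on high fat, again Hamp, which encodes the iron hormone hepcidin (7123 and 2282 RPKM, log2 change of -1.64). The difference between diets passed 2-fold upward for 0 of 23 (3 and 2 under the rescalings) and downward for Lbp (0 under the rescalings). Serpina1b was listed at 0 in both flox groups, so it was compared between the knockout groups only. There it was at 6623 RPKM on chow and 3095 RPKM on high fat. The related gene Serpina1a was listed at 0 in knockout livers on chow and at 1858 RPKM in knockout livers on high fat. How reads were shared between them was not tested, so the fall of Serpina1b alone is uncertain. Of 12 negative acute phase genes, 0 passed 2-fold on chow, and on high fat Apoa1, the main apolipoprotein of high-density lipoprotein, was lower in knockout livers (log2 change of -1.23), a call that the rescalings removed.

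Of 17 genes listed as transcription factors that drive acute phase genes by textbook accounts, 0 passed 2-fold in any of the 5 comparisons of RNA levels. Jak1 and Jak2 on this list are kinases. Over all genes, 0.213% to 1.86% passed in each direction of a comparison, so 0 of 17 is near that share. Stat3 was at 20.8, 18.0, 20.4 and 18.1 RPKM, and Cebpb at 76.1, 73.2, 64.4 and 64.6 RPKM, in flox livers on chow, flox livers on high fat, knockout livers on chow and knockout livers on high fat. Creb3l3, a liver factor of the endoplasmic reticulum that acts on acute phase genes, was at 104, 112, 101 and 70.5 RPKM, with a log2 change of -0.66 in knockout livers on high fat. Cebpd was at 2.81 to 3.64 RPKM.

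The cytokines that drive the response had low RNA levels in these livers. Il6 was listed at 0.043 RPKM in flox livers on chow and at 0 in the other 3 groups, Tnf at 0.083 to 0.32 RPKM, and Il1b at 0.78 to 1.52 RPKM with its highest value in knockout livers on high fat. Il1a, the other interleukin-1 gene, was at 1.55 RPKM in flox livers on chow, 1.78 in flox livers on high fat, 1.197 in knockout livers on chow and 2.62 in knockout livers on high fat, within 2-fold on the log2 scale in every comparison. Of 13 cytokine and receptor genes compared, Lifr, the receptor of leukaemia inhibitory factor, was lower in knockout livers on chow (98.1 and 45.1 RPKM, log2 change of -1.10), a call that 1 of the 2 rescalings kept. On high fat, Lifr (55.2 and 23.9 RPKM, log2 change of -1.17) and Il1rap, a subunit of the interleukin-1 receptor (70.3 and 28.7 RPKM, log2 change of -1.26), were lower in knockout livers, calls that neither rescaling kept. In knockout livers Cd14, the coreceptor for lipopolysaccharide, was higher on high fat (1.25 and 3.85 RPKM, log2 change of 1.11). Among 11 genes listed as feedback genes of STAT3 and NF-kB, Socs2 was higher in knockout livers on both diets (log2 changes of 1.64 and 1.72). On the same list Socs3 (0.17 on chow and -0.33 on high fat) and Nfkbia (-0.07 and -0.14) were within 2-fold. Cish was lower on high fat than on chow in knockout livers (log2 change of -1.17 as deposited). The activity of STAT3 and NF-kB was not measured, and these RNA levels alone do not give it. Among 8 receptors and partners of the members, Lrp1, the receptor for hemopexin bound to haem, was at 32.5 RPKM in flox livers on chow, 44.7 in flox livers on high fat, 11.3 in knockout livers on chow and 17.3 in knockout livers on high fat. It fell in knockout livers on both diets (log2 changes of -1.44 and -1.32), where Hpx itself stayed within 2-fold. Cd36, a scavenger receptor that takes up serum amyloid A among other ligands, rose with the diet in knockout livers (6.78 and 23.03 RPKM, log2 change of 1.63). In flox livers it was at 11.6 RPKM on chow and 23.03 on high fat (log2 change of 0.94), which passed 2-fold under the rescalings. As deposited, the 2 genotypes thus had the same Cd36 level on high fat, while both rescalings put it higher in knockout livers.

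Lcn2 and Saa3 are also made by cells other than hepatocytes, so markers of such cells are given beside them. The summed level of 14 macrophage markers was 295 RPKM in flox livers on chow, 337 in flox livers on high fat, 285 in knockout livers on chow and 465 in knockout livers on high fat, highest where Saa3 and Lcn2 were highest. The sum was lowest in knockout livers on chow, where Lcn2 was lowest too, but Saa3 was lowest in flox livers on high fat. Between the genotypes on high fat, Trem2 alone of the 14 was higher by 2-fold as deposited. Between the knockout groups, 4 of the macrophage markers rose with the diet, Cd5l, Marco, Cd14 and Trem2, and 6 under the rescalings. Of 12 neutrophil markers, 9 were under 1 RPKM in all 4 groups and their sum ran from 6.72 to 9.59 RPKM. Of 9 adipocyte markers, Lep was listed at 0 in all groups and the sum ran from 25.0 to 38.4 RPKM. Cfd and Cidec rose with the diet in flox livers (log2 changes of 2.81 and 1.25). Cfd was at 0.53 RPKM in flox livers on chow, 9.76 in flox livers on high fat, 0.26 in knockout livers on chow and 0.19 in knockout livers on high fat. On high fat it was thus lower in knockout livers (log2 change of -3.17). The summed level of 9 cholangiocyte markers was 23.8, 25.3, 46.8 and 119 RPKM, and that of 10 stellate cell markers 106, 105, 132 and 176 RPKM, in the same order of groups, both highest in knockout livers on high fat. Most of each sum came from 1 gene, Spp1 (19.7, 20.6, 39.4 and 103 RPKM) and Dcn (86.7, 80.0, 108 and 130 RPKM). Gene by gene, 4 of 7 cholangiocyte and 2 of 9 stellate cell markers compared were higher in knockout than in flox livers on high fat, and 0 were lower. Endothelial markers summed to 73.8 to 83.4 RPKM and lymphocyte markers to 4.53 to 5.76 RPKM. The part of these cells in the levels of Lcn2, Saa3 and Orm2 was not tested. Globin RNA, which comes from blood in the tissue and encodes the chains that haptoglobin binds, fell with the diet in knockout livers, by 1.04 on the log2 scale for Hba-a1,Hba-a2 and by 1.36 for Hbb-b1,Hbb-b2, of which the latter alone passed 2-fold under the rescalings. Over the same comparison Hp changed by -0.21.

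**Figure D5:**
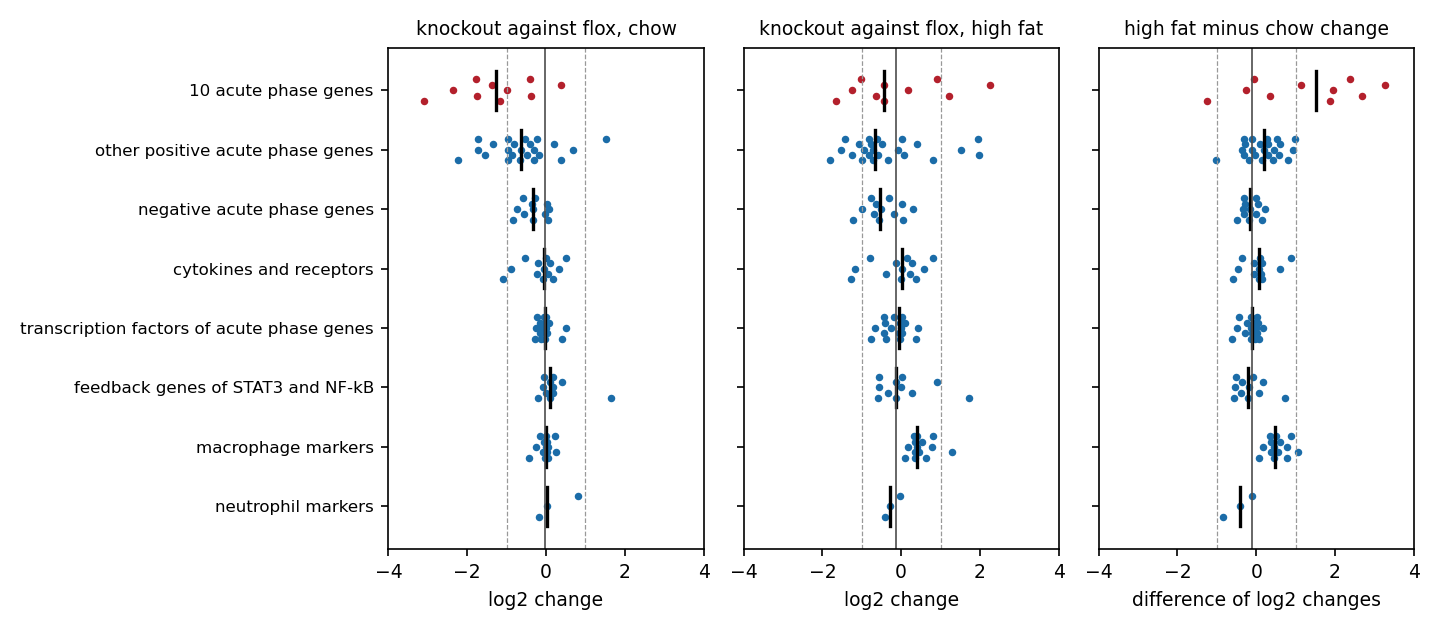
Log2 change of each gene (points) in the 10 acute phase genes (red) and 7 other lists (blue) for knockout against flox on chow, the same on high fat, and the difference between them; short black bars are list medians, the solid vertical line the median of all genes and dashed lines 2-fold. The 10 genes have medians of -1.26, -0.43 and 1.51, and the points of the transcription factor list lie within 2-fold in all 3 panels.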

How the data were processed

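The deposited tables hold RPKM values, 1 per gene and group, made by the authors and named so per the file headers. The submitters' processing notes list TopHat2 2.0.7, Cuffdiff 2.1.1 and mm10 without saying what each was used for. How the 2 libraries of a group were combined, and with which annotation, is not given in the sources used here. A file's group was taken from its name, which matches the sample titles without their replicate number. The low values were checked for steps of whole reads, but only 30.0% to 38.1% of them lay within 0.05 of a whole step, so reads could not be recovered and the depth is unknown.

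Rows with the same symbol were summed. A gene was used where it reached 1 RPKM in at least 1 group, and it was left out of a comparison where a compared group listed it at 0. Changes are log2 ratios after adding 1 RPKM, called past 2-fold, with no test. Named were the 10 members, 9 regulators and checks, up to 4 called genes per list with the largest change in a comparison, and the 3 likest genes of the 3 most variable members. Cyp4a10 was given in full, and some further list genes were named, after their values were seen. The members, the 15 lists and the motifs were chosen with earlier results of these data known. The script was tested on simulated data. Positions and coding sequences came from GENCODE M21, and alignments used Biopython 1.88 under Python 3.11.15, with pandas 2.3.3, numpy 2.4.6 and matplotlib 3.10.9. The 7 alternatives were 2 other pseudocounts, no filter, a stricter filter, 2 rescalings and the highest of repeated rows.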

Additional observations from a re-analysis of the deposited data

Results flagged for a closer look

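Orm2 moved in opposite directions between the genotypes on the 2 diets: in knockout livers it was below flox on chow (log2 change of -1.16) and above flox on high fat (log2 change of 1.23). The difference between the 2 changes was 2.39 on the log2 scale. Each group has 1 value, so this difference was not tested. Under the 2 rescalings the Orm2 change was -1.08 and -1.01 on chow, close to the limit, and 1.52 and 1.54 on high fat. The split of reads between Orm1 and Orm2 is uncertain, and the orosomucoid sum did not rise on high fat (log2 changes of -1.71 on chow and -0.32 on high fat). Lcn2 also passed 2-fold in opposite directions once the groups were rescaled (-1.71 and -1.64 on chow, 1.19 and 1.21 on high fat), but not as deposited, where its change on high fat was 0.90.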

How the results depend on the processing

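Of 350 values of single members under the 7 alternatives, 334 kept their direction and their side of 2-fold. Another 7 lost the call, 2 gained it and 7 changed sign without a call. No member symbol was repeated and each member reached 5 RPKM in some group. No filter, the stricter filter and the highest of repeated rows therefore could not change a member, and the 50 values under each stayed the same by construction. The 334 thus overstate how far the members were tried. The members lower in knockout livers on high fat went from 3 to 1 (Saa4) under both rescalings, the other member counts staying within 1.5 times. The summed Saa1 and Saa2 difference on high fat turned from -0.15 to 0.14 under the median rescaling and 0.16 under the rescaling without the 50 most abundant genes, and the orosomucoid rise with diet in knockout livers passed 2-fold under them (1.27 and 1.28, against 0.98). Counts over all genes moved more. With 0.1 RPKM added, genes higher were 81 (knockout on chow), 231 (knockout on high fat), 61 (diet in flox), 189 (diet in knockout) and 143 (difference), and 97 were lower in the difference. With 5 RPKM added, they were 9 higher and 87 lower, 37 and 119, 11 and 29, 30 higher, and 38 and 30, in that order. A minimum of 5 RPKM left 64 higher in knockout livers on high fat. The median rescaling gave 185 higher and 93 lower there, 131 and 47 for diet in knockout and 112 and 30 for the difference, and the rescaling without the 50 most abundant genes 193 and 89, 135 and 47, and 106 and 35. The cause of these shifts was not tested, except that an added 0.1 or 5 RPKM by construction raises or lowers the fold of genes with low values. No paired analysis was possible because the files hold no values per library, and for the same reason no replicate could be left out in turn. Depth is unknown, so no limit of detection can be given for the low values of Orm3 or Il6.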
